A study of Mus musculus with 203 samples.

Results

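The 32 genes described here encode the enzymes and transporters of glycolysis and the pentose phosphate pathway, the hypoxia-inducible factor Hif1a, the prolyl hydroxylases that mark it for degradation, and a few of its well-known target genes. They were taken by gene symbol from a list that was drawn up with earlier results of these data known. All 32 were listed in both RNA-seq tables of the study, among 25094 genes in RAW264.7 cells and 16478 genes in bone marrow-derived macrophages. The study asked how the coregulators GPS2 and KDM1A shape the response of mouse macrophages to the cytokine IL4. RAW264.7 (RAW) cells are a mouse macrophage line of BALB/c origin, and the 16 RNA-seq libraries used here come from 4 groups of 4. Their source name and the study's methods give RAW cells, whereas the growth and treatment protocols of the labels name only bone marrow-derived macrophages for RNA-seq. The study's figure legends differ too. One names bone marrow-derived macrophages for the comparison of Kdm1a knockdown and IL4, and a supplementary one names RAW cells. The libraries are taken as RAW cells here. The shGFP RAW and shKDM1A RAW groups were stable lines made with lentiviral short hairpin RNAs against GFP, a sequence these cells lack, and against Kdm1a, which encodes a lysine demethylase of histones, and both were selected with puromycin and left without IL4. The shGFP RAW IL4 and shKDM1A RAW IL4 groups were the same lines given 20 ng/ml of IL4 for 6 h. Only 1 hairpin against Kdm1a was used, so an effect of Kdm1a and an effect of that hairpin or line cannot be told apart. The study's methods state that biological replicates were used, but neither they nor the labels say whether the 4 libraries of a group were separate cultures, so p-values measure only the spread between these libraries. The table of bone marrow-derived macrophages holds only the authors' own comparisons, and its values are not used here.

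Glycolysis splits glucose into pyruvate in the cytosol and yields ATP without oxygen, and pyruvate can then be reduced to lactate and exported. The pentose phosphate pathway branches off at glucose 6-phosphate and supplies NADPH and ribose. HIF1A is hydroxylated by the EGLN enzymes and destroyed when oxygen is plentiful, and when it is stable it raises transcription of glycolytic genes. Macrophages activated by bacterial products are known for high glycolysis, and the place of glucose use in IL4-activated macrophages has been debated. Transcript levels of these genes do not measure glucose flux, and HIF1A protein was not measured here.

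Values are on a log2 scale, as deposited after normalization between libraries. The transformation is not named, but the median SD between libraries of a group was 0.0159 in the 1164 genes with a mean value from 1 to 3, 0.0307 from 3 to 5, 0.0522 from 5 to 7, 0.0593 from 7 to 9, 0.0473 from 9 to 11 and 0.0332 above 11. The spread was thus narrowest at the bottom of the scale, where counting error is widest. Differences of genes there, such as Egln3, may be understated, and so may their standard errors, on which calls rest. The libraries held 17554721 to 27782568 tags. Kdm1a (chr4:136106448-136158638, minus strand of mm9) stood at 11.21, 11.23, 11.13 and 11.17 in the shGFP RAW libraries and at 10.36, 10.32, 10.23 and 10.29 in the shKDM1A RAW libraries, a difference of -0.88 (standard error 0.028, adjusted p = 5.62e-13, limma). With IL4 the values were 11.12, 11.10, 11.12 and 11.07 against 10.32, 10.33, 10.34 and 10.28, a difference of -0.79 (standard error 0.028, adjusted p = 2.20e-12, limma). Of 9 macrophage markers, 8 were between 9.52 and 17.18 in every library and Mertk was near the bottom of the scale, while all 16 markers of T cells, B cells, fibroblasts, endothelial and epithelial cells lay between -2.27 and 1.52. In the shKDM1A RAW IL4 group, replicates 1 and 3 both lay above replicates 2 and 4 in 16 of the 32 genes and below them in 6, against 23.1% and 24.9% of the 12905 genes tested, and in the other 3 groups the first of these counts was between 2 and 6 genes. Counts and calls that rest on this group are therefore also given without each of these pairs where they change, an alternative chosen after seeing the data. Because these are bulk samples, more RNA per cell and more cells that express a gene cannot be told apart.

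All 32 genes reached a value of 1 in 4 or more libraries and were tested. Compared per kilobase of transcript in shGFP RAW cells, the mean log2 level ran from 15.59 for Pkm, the pyruvate kinase of the last step of glycolysis, to 1.13 for Egln3, a prolyl hydroxylase. Pkm lay above 99.9% of the tested genes, and 14 of the 32 genes were among the 1291 tested genes with the highest level per length. These 14 were Pkm, Ldha, Aldoa, Eno1, Pgk1, Tpi1, Pgd, Taldo1, Pgam1, Gpi1, Tkt, G6pdx, Pgls and Slc16a3, so that the whole set of pentose phosphate members was in it. The hexokinases and phosphofructokinase were lower, with Hk1 at 9.47, Hk3 at 8.87 and Hk2 at 8.55 per kilobase among the hexokinases, and Pfkl at 9.82, Pfkp at 9.75 and Pfkm at 7.19 among the phosphofructokinase subunits. Hif1a was at 9.39 per kilobase, above 79.1% of the tested genes, Egln1 at 7.74, and the target genes ran from 9.27 for P4ha1 to 5.19 for Ddit4. Gapdh stood at 9.74 per kilobase, below the enzymes before and after it in the pathway. Gapdh and several other glycolytic genes have processed pseudogenes in the mouse genome, and how reads that match both were counted is not given in the sources used here, so the level of Gapdh in particular is uncertain.

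**Figure D1:**
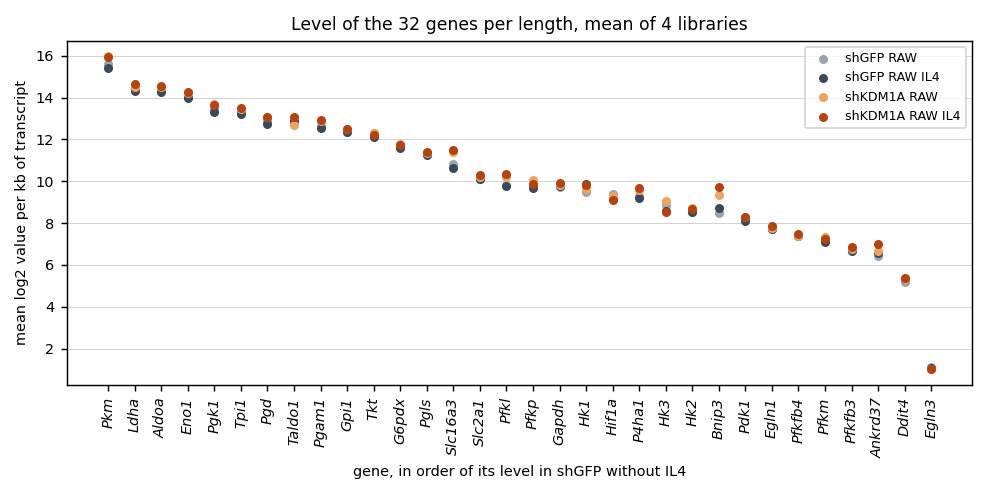
Mean log2 value per kilobase of transcript (vertical axis) of each of the 32 genes (horizontal axis, ordered by level in shGFP RAW cells), with 1 point for each of the 4 groups, each the mean of 4 libraries. The 4 points of a gene lie close together compared with the distance from Pkm at 15.59 to Egln3 at 1.13, and Bnip3, Slc16a3 and Ankrd37 show the widest separation between groups.

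The first question was how the genes differ between cells with and without the Kdm1a hairpin. Of the 20 glycolysis and lactate genes on the list, 17 were higher in shKDM1A RAW cells without IL4 and 17 with IL4, where Hk1 was lower, and of the 4 HIF1A targets 4 and 3 were higher. Bnip3, a mitochondrial protein that acts in mitophagy and cell death, differed most, at 82.2% higher without IL4 and 102.0% higher with IL4. Slc16a3, the lactate exporter MCT4, was 49.6% and 80.4% higher, Pfkl 30.6% and 46.4% higher, and Pkm 30.9% and 42.9% higher. Hif1a itself passed the test in neither comparison. Without IL4, 23 of the 32 genes were higher and 1, Egln3, was lower at an adjusted p under 0.05, beside 19.7% of all 12905 tested genes that were higher and 18.4% that were lower. With IL4, 26 were higher and 1, Hk1, was lower, beside 20.9% and 19.8% of all tested genes. The median difference over the 32 genes was 0.15 without and 0.19 with IL4, and over all tested genes it was -0.0028 and -0.0024. Level is given beside this count. Among the 1291 genes with the highest level per length 26.2% were higher and 30.1% lower without IL4 and 41.2% were higher and 12.9% lower with IL4. Of the 14 members in that class, 11 were higher without IL4 and 14 with IL4. Many differences were small. When a log2 difference over 0.2 in size was also asked for, 11 genes stayed higher without IL4 and 15 with IL4, beside 8.37% and 8.23% of all tested genes. In either comparison 0 stayed lower, beside 4.1% and 5.6%.

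**Figure D2:**
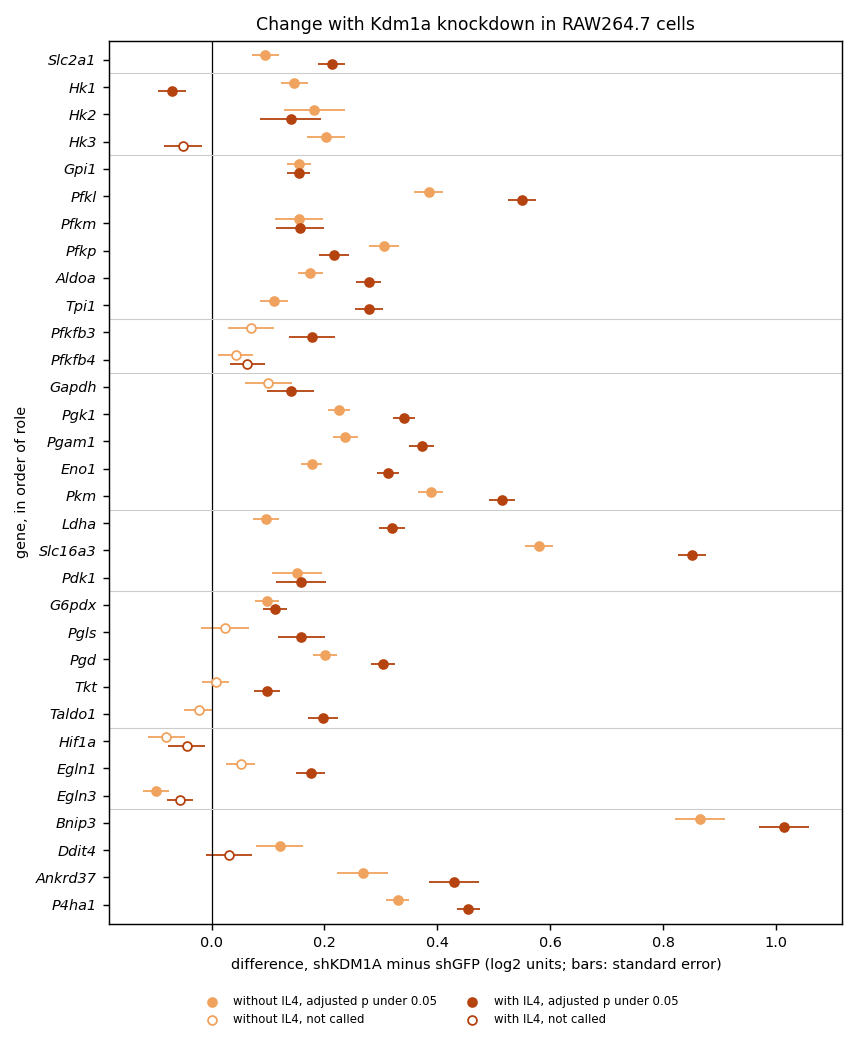
Difference between shKDM1A and shGFP RAW cells (horizontal axis, log2 units, with standard errors as bars) for each of the 32 genes, in order of role, without IL4 (light) and with IL4 (dark), from 4 libraries per group. Filled points had an adjusted p under 0.05. Most points lie to the right of 0, Bnip3 reaches 1.01 with IL4, and Hif1a, Egln3 and Pfkfb4 stay near 0.

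Of the HIF1A targets, Bnip3 (chr7:146082519-146101189, minus strand of mm9) had values of 9.28, 9.30, 9.29 and 9.33 in shGFP RAW and 10.24, 10.08, 10.25 and 10.09 in shKDM1A RAW libraries. With IL4 these were 9.39, 9.51, 9.61 and 9.52 and 10.50, 10.54, 10.57 and 10.48. The groups of each hairpin did not overlap, and the differences were 0.87 (standard error 0.044, adjusted p = 1.56e-10, limma) without IL4 and 1.01 (standard error 0.044, adjusted p = 2.15e-11, limma) with IL4. Ankrd37, an ankyrin repeat protein induced by hypoxia, stood at 6.26, 6.17, 6.29 and 6.31 in shGFP RAW, 6.40, 6.59, 6.56 and 6.55 in shKDM1A RAW, 6.36, 6.40, 6.52 and 6.44 in shGFP RAW IL4 and 6.90, 6.82, 6.93 and 6.80 in shKDM1A RAW IL4. Every shKDM1A library lay above every shGFP library of the same treatment, by 0.27 (standard error 0.045, adjusted p = 1.68e-04, limma) and 0.43 (standard error 0.045, adjusted p = 1.06e-06, limma). Its gene span shares 49 bases with Ufsp2 on the other strand, and the counting did not use strand. P4ha1, a collagen prolyl hydroxylase subunit, was at 11.29, 11.31, 11.28 and 11.25 and 11.62, 11.59, 11.61 and 11.63 without IL4. The IL4 libraries read 11.27, 11.21, 11.17 and 11.23 and 11.69, 11.67, 11.67 and 11.68. The libraries of P4ha1 were tight and did not overlap, with differences of 0.33 (standard error 0.021, adjusted p = 1.99e-09, limma) and 0.45 (standard error 0.021, adjusted p = 4.00e-11, limma). Ddit4, an inhibitor of mTORC1 signalling, was higher without IL4 at 0.12 (adjusted p = 0.0297, limma) and not called with IL4 at 0.031, and its call without IL4 ended when any of 5 libraries was left out (shGFP RAW replicate 2 or 4, or shKDM1A RAW replicate 1, 2 or 4).

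Of the factor and its hydroxylases, 1 of 3 genes was lower without IL4 and 1 of 3 higher with IL4. Hif1a (chr12:75008854-75048541, plus strand) was at 11.63, 11.71, 11.66 and 11.56 in shGFP RAW and 11.59, 11.53, 11.54 and 11.58 in shKDM1A RAW libraries, and with IL4 at 11.45, 11.41, 11.39 and 11.45 and 11.37, 11.39, 11.32 and 11.46. These ranges overlapped, and the differences were -0.08 (standard error 0.033, adjusted p = 0.068, limma) and -0.044 (standard error 0.033, adjusted p = 0.318, limma). Without shGFP RAW replicate 4, the lowest library of its group, Hif1a was called lower without IL4, as it was under quantile normalization at -0.10. Egln1, the main prolyl hydroxylase of HIF1A in most tissues, was not called without IL4 at 0.052 and was higher with IL4 at 0.18 (adjusted p = 4.17e-05, limma). Egln3 was lower without IL4 at -0.099 (adjusted p = 0.00261, limma), with all 16 values between 2.44 and 2.62, near the bottom of the scale, so this difference is that of a barely expressed gene.

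The start of glycolysis showed moderate differences. Slc2a1, the glucose transporter GLUT1, stood at 11.44, 11.50, 11.45 and 11.46 in shGFP RAW and 11.53, 11.58, 11.54 and 11.58 in shKDM1A RAW libraries. After IL4 the same lines were at 11.43, 11.51, 11.47 and 11.44 and 11.72, 11.66, 11.69 and 11.63. It was higher with the Kdm1a hairpin by 0.095 (standard error 0.024, adjusted p = 0.00476, limma) and 0.21 (standard error 0.024, adjusted p = 2.37e-06, limma), with no overlap. Hexokinases trap glucose as glucose 6-phosphate, and their 3 genes did not move alike. Hk2 was at 10.99, 11.02, 10.98 and 11.03 and 11.11, 11.19, 11.26 and 11.19 without IL4. With IL4 it was at 10.96, 10.98, 11.02 and 10.93 in shGFP cells and 10.89, 11.24, 11.15 and 11.17 in shKDM1A cells. Replicate 1 of the last group lay below the whole shGFP group while the other 3 lay above it, and the difference of 0.14 (standard error 0.054, adjusted p = 0.0486, limma) was lost when any of its libraries but shKDM1A RAW IL4 replicate 1 was left out, while 0.18 (standard error 0.054, adjusted p = 0.014, limma) was found without IL4. Hk1 and Hk3, given with the IL4 response below, were higher in shKDM1A cells without IL4 by 0.15 and 0.20 (adjusted p = 1.61e-04 and 1.58e-04, limma). With IL4 Hk1 was lower, at -0.07 (adjusted p = 0.0321, limma), a call lost without shGFP RAW IL4 replicate 2 or 4 or shKDM1A RAW IL4 replicate 1 or 3, and Hk3 was not called at -0.05.

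The phosphofructokinase subunits catalyse the committed step of glycolysis. Pfkl, the liver-type subunit (chr10:77449694-77472552, minus strand), was at 11.72, 11.67, 11.67 and 11.78 in shGFP RAW and 12.08, 12.10, 12.12 and 12.07 in shKDM1A RAW libraries. The IL4-treated libraries read 11.66, 11.70, 11.68 and 11.66 and 12.23, 12.22, 12.26 and 12.18. The groups did not overlap, with differences of 0.38 (standard error 0.026, adjusted p = 3.87e-09, limma) and 0.55 (standard error 0.026, adjusted p = 4.85e-11, limma). Pfkp, the platelet-type subunit, was at 11.73, 11.77, 11.75 and 11.77 and 12.05, 12.03, 12.09 and 12.08 without IL4. With IL4 it was at 11.69, 11.69, 11.67 and 11.67 and 11.93, 11.89, 11.96 and 11.81. Its differences were 0.31 (standard error 0.027, adjusted p = 1.22e-07, limma) and 0.22 (standard error 0.027, adjusted p = 6.83e-06, limma), and its span shares 276 bases with Pitrm1 on the other strand. Pfkm, the muscle-type subunit, was higher by 0.15 and 0.16 (adjusted p = 0.00871 and 0.00738, limma). Of the other upper enzymes, Gpi1, which isomerizes glucose 6-phosphate, was higher by 0.16 and 0.15, and Aldoa, which splits fructose 1,6-bisphosphate, by 0.18 and 0.28. All 6 genes of this class, from Gpi1 to Tpi1, were higher in both comparisons.

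PFKFB enzymes set the level of fructose 2,6-bisphosphate, which activates phosphofructokinase. Pfkfb3 was at 9.08, 8.99, 9.04 and 9.05 in shGFP RAW and 9.10, 9.04, 9.19 and 9.11 in shKDM1A RAW libraries, overlapping ranges with a difference of 0.07 (standard error 0.041, adjusted p = 0.199, limma). With IL4 it was at 8.98, 9.02, 9.00 and 9.08 and 9.09, 9.30, 9.18 and 9.24, which did not overlap and differed by 0.18 (standard error 0.041, adjusted p = 0.00226, limma). Pfkfb4 was called in neither comparison, at 0.043 and 0.064.

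Lower glycolysis turns triose phosphates into pyruvate, and 4 of its 5 genes were higher without IL4 and 5 with IL4. Pkm (chr9:59504175-59527182, plus strand) was at 16.87, 16.82, 16.84 and 16.91 in shGFP RAW and 17.28, 17.21, 17.25 and 17.26 in shKDM1A RAW libraries. With IL4 it was at 16.70, 16.71, 16.69 and 16.69 and 17.23, 17.19, 17.24 and 17.19. The groups were far apart, with differences of 0.39 (standard error 0.022, adjusted p = 7.06e-10, limma) and 0.51 (standard error 0.022, adjusted p = 2.28e-11, limma), and the table does not separate its M1 and M2 isoforms. Pgk1, phosphoglycerate kinase, stood at 14.34, 14.32, 14.33 and 14.35 and 14.58, 14.54, 14.57 and 14.55 without IL4. After IL4 the values were 14.18, 14.19, 14.17 and 14.19 and 14.57, 14.49, 14.54 and 14.49. The difference grew from 0.23 (standard error 0.020, adjusted p = 1.17e-07, limma) to 0.34 (standard error 0.020, adjusted p = 6.85e-10, limma), and the test of that growth is given with the IL4 response. Pgam1, phosphoglycerate mutase, was at 13.46, 13.47, 13.51 and 13.54 and 13.76, 13.72, 13.74 and 13.71 without IL4. Given IL4, the lines read 13.40, 13.42, 13.39 and 13.43 and 13.83, 13.78, 13.76 and 13.76. None of its shKDM1A libraries reached down to a shGFP library, and the differences were 0.24 (standard error 0.022, adjusted p = 3.12e-07, limma) and 0.37 (standard error 0.022, adjusted p = 1.15e-09, limma). Eno1, enolase, had values of 14.83, 14.82, 14.87 and 14.90 and 15.05, 15.02, 15.04 and 15.03 without IL4. With IL4 they were 14.80, 14.81, 14.80 and 14.78 and 15.11, 15.11, 15.14 and 15.09. Its differences were 0.18 (standard error 0.019, adjusted p = 1.65e-06, limma) and 0.31 (standard error 0.019, adjusted p = 1.57e-09, limma), again without overlap. Gapdh, the dehydrogenase often taken as a reference gene, was at 10.16, 10.24, 10.25 and 10.33 and 10.36, 10.34, 10.31 and 10.36 without IL4. The IL4 groups were at 10.20, 10.31, 10.24 and 10.30 and 10.47, 10.34, 10.49 and 10.31. Its ranges overlapped in both settings, with differences of 0.10 (standard error 0.042, adjusted p = 0.0713, limma) and 0.14 (standard error 0.042, adjusted p = 0.0139, limma), and the second call was lost without shKDM1A RAW IL4 replicate 3 and without replicates 1 and 3 of that group.

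The lactate branch held the second largest difference of all. Slc16a3 (chr11:120810381-120820314, plus strand) stood at 12.12, 12.14, 12.07 and 12.16 in shGFP RAW and 12.73, 12.69, 12.70 and 12.70 in shKDM1A RAW libraries. With IL4 it stood at 11.92, 12.01, 11.95 and 11.95 and 12.78, 12.82, 12.85 and 12.77. The lines were separated by 0.58 (standard error 0.025, adjusted p = 1.73e-11, limma) and 0.85 (standard error 0.025, adjusted p = 1.98e-13, limma). Ldha, the lactate dehydrogenase subunit that favours lactate, was at 15.10, 15.09, 15.08 and 15.14 and 15.20, 15.18, 15.20 and 15.21 without IL4. After IL4 the lines were at 15.02, 15.02, 15.02 and 15.03 and 15.39, 15.30, 15.38 and 15.30. The hairpins differed by 0.096 (standard error 0.023, adjusted p = 0.00344, limma) and by 0.32 (standard error 0.023, adjusted p = 1.10e-08, limma). Pdk1, a kinase that keeps pyruvate out of the mitochondrion by inhibiting pyruvate dehydrogenase, was higher by 0.15 and 0.16 (adjusted p = 0.012 and 0.00884, limma).

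In the pentose phosphate pathway 2 of 5 genes were higher without IL4 and all 5 with IL4. G6pdx, the rate-limiting dehydrogenase, stood at 12.92, 12.89, 12.92 and 12.87 in shGFP RAW and 12.97, 12.98, 13.03 and 13.01 in shKDM1A RAW libraries. With IL4 it stood at 12.77, 12.82, 12.84 and 12.85 and 12.90, 12.93, 12.94 and 12.96. The gaps were small but clear of the spread, at 0.099 (standard error 0.021, adjusted p = 0.00159, limma) and 0.11 (standard error 0.021, adjusted p = 5.37e-04, limma). Pgd, the second NADPH-forming enzyme, was higher by 0.20 and 0.30 (adjusted p = 1.17e-06 and 7.76e-09, limma). Pgls, Tkt and Taldo1 were not called without IL4, at 0.024, 0.0071 and -0.023, and were higher with IL4, at 0.16, 0.099 and 0.20 (adjusted p = 0.00675, 0.00286 and 1.51e-05, limma). The calls of Pgls and Tkt with IL4 were lost without shKDM1A RAW IL4 replicates 1 and 3, as was that of Hk1, and those of Hk2, Pfkm and Pdk1 without replicates 2 and 4. Under quantile normalization the calls of Hk2 and Tkt with IL4 and of Ddit4 without IL4 were lost. Either pair left out gave 23 genes higher with IL4, beside 17.2% and 20.8% of all tested genes. Across the 32 genes, 20 were higher in both comparisons, which share no library but come from the same 2 lines. How many of all tested genes were higher in both was not counted. Of the genes called higher, 24 of 26 with IL4 and 22 of 23 without IL4 kept the call whichever single library was left out. Calls were gained for Gapdh and Hif1a without shGFP RAW replicate 4 and for Egln1 without shGFP RAW replicate 2. With IL4 they were gained for Hk3 without shGFP RAW IL4 replicate 4 and for Pfkfb4 without shGFP RAW IL4 replicate 2.

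Because many of these genes were higher together, the 250 bases before the start of each gene were read from mm9, and the 6 genes with the largest difference with IL4 are printed. Capitals mark ACGTG or GCGTG on either strand, the core of the hypoxia response element, with CACGT and CACGC as the reverse complements. ACGTG also lies within the E-box CACGTG, which then counts on each strand. A match is a description of the letters and not a bound site.
Bnip3, chr7:146101190-146101439, minus strand: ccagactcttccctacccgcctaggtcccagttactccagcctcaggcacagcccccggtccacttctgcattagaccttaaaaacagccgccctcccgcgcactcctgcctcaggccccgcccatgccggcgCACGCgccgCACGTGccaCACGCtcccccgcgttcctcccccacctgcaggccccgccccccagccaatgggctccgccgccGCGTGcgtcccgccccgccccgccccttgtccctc
Slc16a3, chr11:120810131-120810380, plus strand: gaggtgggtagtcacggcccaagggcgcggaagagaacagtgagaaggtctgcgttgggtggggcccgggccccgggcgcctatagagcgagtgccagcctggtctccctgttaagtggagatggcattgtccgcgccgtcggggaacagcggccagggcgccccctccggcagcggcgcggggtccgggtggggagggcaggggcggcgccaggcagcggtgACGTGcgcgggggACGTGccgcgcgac
Pfkl, chr10:77472553-77472802, minus strand: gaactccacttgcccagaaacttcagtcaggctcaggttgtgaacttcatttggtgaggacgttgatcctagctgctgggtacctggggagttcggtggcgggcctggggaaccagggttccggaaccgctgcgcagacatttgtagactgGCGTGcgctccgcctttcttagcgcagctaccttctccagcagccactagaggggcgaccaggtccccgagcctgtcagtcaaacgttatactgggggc
Pkm, chr9:59503925-59504174, plus strand: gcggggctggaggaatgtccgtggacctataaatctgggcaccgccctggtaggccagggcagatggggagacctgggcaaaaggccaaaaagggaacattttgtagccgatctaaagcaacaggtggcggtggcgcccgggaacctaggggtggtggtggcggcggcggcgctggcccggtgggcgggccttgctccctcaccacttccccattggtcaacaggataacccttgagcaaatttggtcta
P4ha1, chr10:58785794-58786043, plus strand: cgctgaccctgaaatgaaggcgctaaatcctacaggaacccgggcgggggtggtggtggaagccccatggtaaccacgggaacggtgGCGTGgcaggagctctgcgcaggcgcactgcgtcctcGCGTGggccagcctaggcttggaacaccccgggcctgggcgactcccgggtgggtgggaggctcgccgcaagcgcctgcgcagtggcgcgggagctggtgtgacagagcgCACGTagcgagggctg
Ankrd37, chr8:47085205-47085454, minus strand: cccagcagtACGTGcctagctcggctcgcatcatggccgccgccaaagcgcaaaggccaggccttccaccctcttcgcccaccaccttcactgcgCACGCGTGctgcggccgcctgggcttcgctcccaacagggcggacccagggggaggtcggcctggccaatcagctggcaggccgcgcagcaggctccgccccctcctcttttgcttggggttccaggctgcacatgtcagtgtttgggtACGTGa

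Among these, Bnip3 held 5 matches, 2 of them from 1 CACGTG, Ankrd37 held 4, P4ha1 3, Slc16a3 2 and Pfkl 1, while the window of Pkm held none of these letters. Ldha also held 5, 4 of them from 2 CACGTG, and Hif1a, which was not called with the hairpin, held 3. ACGTG was found in 17 of the 32 windows (53.1%) and in 21.7% of the 12883 windows of all tested genes with a full sequence. GCGTG was found in 21 (65.6%) against 45.3%, and either of them in 29 (90.6%) against 56.4%. The windows without either were those of Gpi1, Tpi1 and Pkm, which were all higher in shKDM1A cells. The median GC content was 62.8% in the 32 windows and 59.6% in all windows, with a median of 16 CG dinucleotides in each. Several of the 32 genes are textbook HIF1A targets and were on the list for that reason, so the share with a motif is not independent of the choice of genes.

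**Figure D3:**
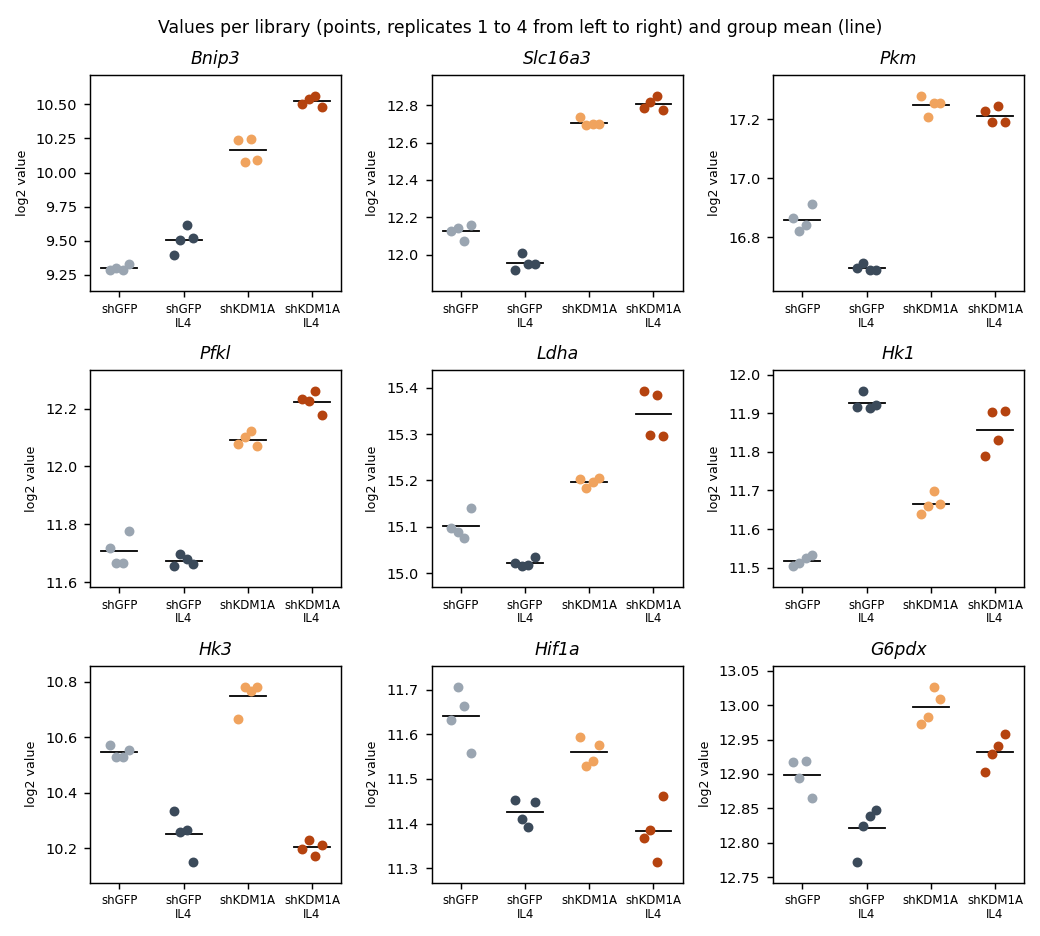
Log2 value of 9 genes in each of the 16 libraries (points, replicates 1 to 4 from left to right in each group) with the mean of each group (line). The vertical axes differ between genes and do not start at 0. In Bnip3, Slc16a3, Pkm, Pfkl and Ldha the shKDM1A groups lie above the shGFP groups, in Hk1 and Hk3 the shift with IL4 is the larger one, and Hif1a is lower with IL4 in both lines.

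The second question was how the genes respond to IL4 in each line. In shGFP RAW cells IL4 was followed by lower transcripts of 4 of 5 genes of lower glycolysis, of Ldha and Slc16a3, of 3 of 5 pentose phosphate genes and of Hif1a, and by higher Hk1, Bnip3, Ankrd37, Ddit4 and Taldo1. Of these, the calls of Eno1, Ldha, Pkm and Ddit4 were lost under another scaling, as given below. Of the 32 genes, 5 rose and 14 fell, beside 13.1% and 13.7% of all tested genes. In shKDM1A RAW cells 12 rose and 5 fell, beside 13.6% and 13.5%. Without shKDM1A RAW IL4 replicates 1 and 3 the counts were 10 and 5 beside 11.0% and 10.5%, with the rises of Tpi1, Eno1 and P4ha1 and the fall of G6pdx lost, a rise of Pfkfb3 gained at 0.16 and a fall of Pgk1 gained at -0.068. Without replicates 2 and 4 they were 13 and 5 beside 14.4% and 15.5%, with the rises of Egln1 and P4ha1 and the fall of Tkt lost, and with rises of Aldoa, Gapdh and Pgls and a fall of Hk2 gained. The median change was -0.048 in shGFP and 0.056 in shKDM1A cells, against -0.0005 and -0.0025 over all tested genes. Among the 1291 genes with the highest level per length, 15.7% rose and 30.4% fell in shGFP cells and 31.4% rose and 15.6% fell in shKDM1A cells, where the 14 members of that class counted 1 and 10 in shGFP cells and 5 and 2 in shKDM1A cells. These changes were small, and with an absolute change over 0.2 also required, 2 rose and 2 fell in shGFP cells, beside 4.11% and 3.8% of all tested genes, and 3 rose and 1 fell in shKDM1A cells, beside 3.45% and 4.23%. The IL4 comparison in a line shares its libraries with the comparisons of the hairpins above.

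**Figure D4:**
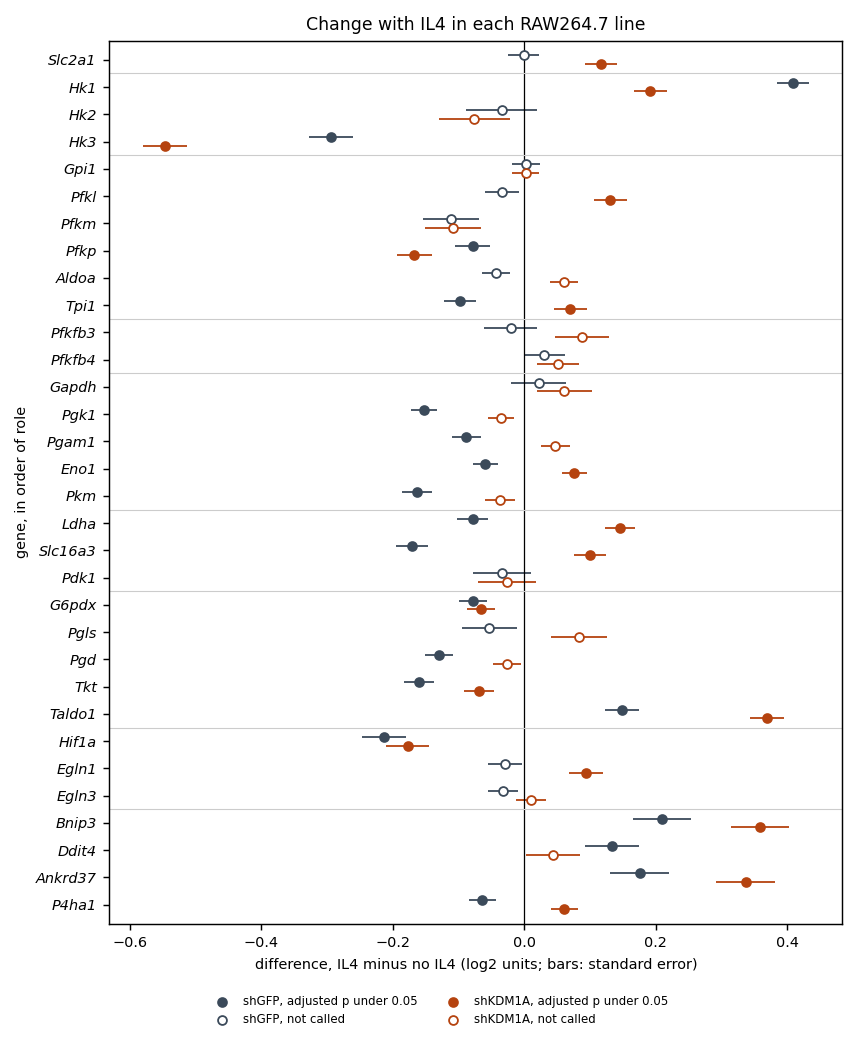
Change with IL4 (horizontal axis, log2 units, with standard errors as bars) for each of the 32 genes, in order of role, in shGFP (dark) and shKDM1A (red) RAW cells, from 4 libraries per group. Filled points had an adjusted p under 0.05. From Pgk1 to Slc16a3 the shKDM1A points lie to the right of the shGFP points, and Hk1 and Hk3 lie farthest apart in shGFP cells, while in shKDM1A cells Taldo1, Bnip3 and Ankrd37 lie farther right than Hk1.

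Hk1 and Hk3 moved in opposite directions with IL4, and in shGFP cells theirs were the largest rise and the largest fall among the 32 genes. Hk1, the widely expressed form (chr10:61731603-61803169, minus strand), stood at 11.50, 11.51, 11.52 and 11.53 in shGFP RAW and 11.92, 11.96, 11.91 and 11.92 in shGFP RAW IL4 libraries. In shKDM1A cells it went from 11.64, 11.66, 11.70 and 11.66 to 11.79, 11.90, 11.83 and 11.91. It rose in both lines without overlap, by 0.41 (standard error 0.025, adjusted p = 1.89e-09, limma) in shGFP and 0.19 (standard error 0.025, adjusted p = 1.77e-05, limma) in shKDM1A cells. Hk3, the form typical of myeloid cells (chr13:55107346-55122746, minus strand), was at 10.57, 10.53, 10.53 and 10.55 and 10.33, 10.26, 10.27 and 10.15 in shGFP cells. In shKDM1A cells it was at 10.66, 10.78, 10.77 and 10.78 and 10.20, 10.23, 10.17 and 10.21. The changes were -0.29 (standard error 0.034, adjusted p = 5.03e-06, limma) and -0.55 (standard error 0.034, adjusted p = 3.05e-09, limma), so that the shKDM1A line started higher without IL4 and reached the level of the shGFP line with IL4. Hk2 was not called in either line, at -0.034 and -0.075.

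Hif1a fell with IL4 in both lines, at -0.21 (standard error 0.033, adjusted p = 1.20e-04, limma) in shGFP and -0.18 (standard error 0.033, adjusted p = 6.59e-04, limma) in shKDM1A cells, and its groups with and without IL4 did not overlap in either line (the values are given above). Egln1 was not called in shGFP cells at -0.029 and rose in the shKDM1A line by 0.095 (adjusted p = 0.0112, limma). Of the targets, Bnip3 rose by 0.21 (standard error 0.044, adjusted p = 0.00196, limma) and 0.36 (standard error 0.044, adjusted p = 1.17e-05, limma), and Ankrd37 by 0.18 (standard error 0.045, adjusted p = 0.00795, limma) and 0.34 (standard error 0.045, adjusted p = 2.74e-05, limma). Ddit4 rose in shGFP cells by 0.13 (adjusted p = 0.0242, limma), a call lost without shGFP RAW replicate 4 or shGFP RAW IL4 replicate 1, and was not called in shKDM1A cells at 0.044. P4ha1 fell in shGFP cells, at -0.064 (adjusted p = 0.0322, limma), and rose in the shKDM1A line by 0.061 (adjusted p = 0.0373, limma), and each of these calls rested on single libraries, the second also on the scaling, at 0.036 and not called under quantile normalization. The first was lost without shGFP RAW replicate 1, 2 or 3 or shGFP RAW IL4 replicate 2 or 3, and the second without shKDM1A RAW replicate 1, 2 or 3 or shKDM1A RAW IL4 replicate 1, 3 or 4.

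In the glycolytic chain, Slc16a3 fell in shGFP cells and rose in shKDM1A cells, with changes of -0.17 (standard error 0.025, adjusted p = 6.66e-05, limma) and 0.10 (standard error 0.025, adjusted p = 0.00616, limma). Ldha showed the same, at -0.078 (standard error 0.023, adjusted p = 0.0186, limma) and 0.15 (standard error 0.023, adjusted p = 1.60e-04, limma). Pkm was lower with IL4 in shGFP cells, at -0.16 (standard error 0.022, adjusted p = 3.71e-05, limma), while in shKDM1A cells it was not called at -0.037. Pgk1, at -0.15 (standard error 0.020, adjusted p = 1.84e-05, limma), and Pgam1, at -0.088 (standard error 0.022, adjusted p = 0.00789, limma), likewise fell in shGFP cells, and were not called in shKDM1A cells at -0.036 and 0.048. Eno1 changed by -0.059 and 0.076 (adjusted p = 0.0331 and 0.00697, limma). The falls of Eno1 and Ldha in shGFP cells depended on the scaling, and under quantile normalization their changes were 0.0263 and 0.0375 and were not called. The calls of Tpi1 (-0.02), Ddit4 (0.11) and Pkm were also lost there, which left 4 genes that rose and 10 that fell, beside 13% and 13.7% of all tested genes. That setting cannot show a change of Pkm, since the setting gives each rank the same value and Pkm ranked 4 from the top of all genes in all 8 shGFP libraries and 2 in all 8 shKDM1A libraries. The fall of Ldha was also lost without shGFP RAW replicate 4, and that of Eno1 without shGFP RAW replicate 3 or 4 or shGFP RAW IL4 replicate 1, 3 or 4. Tpi1 stood at 14.00, 13.99, 13.98 and 14.06 and 13.91, 13.91, 13.90 and 13.92 in shGFP cells. In shKDM1A cells it was at 14.12, 14.09, 14.13 and 14.13 and 14.23, 14.14, 14.24 and 14.15. The changes of this triose phosphate isomerase were -0.097 (standard error 0.025, adjusted p = 0.00797, limma) and 0.07 (standard error 0.025, adjusted p = 0.0473, limma). The second call was lost without any of its libraries but shKDM1A RAW IL4 replicates 2 and 4, and its span shares 25 bases with Spsb2 on the other strand. Pfkl was not called in shGFP cells at -0.034 and rose in the shKDM1A line by 0.13 (standard error 0.026, adjusted p = 9.88e-04, limma). Pfkp fell in both, at -0.078 (adjusted p = 0.0409, limma), a call lost without any of its libraries but shGFP RAW replicate 1, and -0.17 (adjusted p = 1.77e-04, limma). Slc2a1 was not called in shGFP cells at -0.0009 and rose in the shKDM1A line by 0.12 (standard error 0.024, adjusted p = 0.00145, limma). Gapdh and Pfkfb3 were called in neither line, with 0.022 and -0.021 in shGFP and 0.061 and 0.088 in shKDM1A cells.

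Of the pentose phosphate genes, Taldo1 parted from the rest. Taldo1, transaldolase of the non-oxidative branch, was at 13.07, 13.06, 13.04 and 13.10 and 13.20, 13.24, 13.21 and 13.22 in shGFP cells. In shKDM1A cells it was at 13.07, 13.02, 13.03 and 13.06 and 13.48, 13.36, 13.45 and 13.36. It rose by 0.15 (standard error 0.026, adjusted p = 3.98e-04, limma) and 0.37 (standard error 0.026, adjusted p = 1.73e-08, limma). Tkt, transketolase of the same branch, was at 13.96, 13.98, 13.95 and 14.02 and 13.80, 13.83, 13.80 and 13.82 in shGFP cells. In shKDM1A cells it was at 14.02, 13.96, 13.98 and 13.97 and 13.95, 13.87, 13.95 and 13.88. It fell, with changes of -0.16 (standard error 0.023, adjusted p = 6.30e-05, limma) and -0.069 (standard error 0.023, adjusted p = 0.0371, limma). G6pdx fell in both lines, at -0.078 (standard error 0.021, adjusted p = 0.0123, limma) and -0.065 (standard error 0.021, adjusted p = 0.0326, limma), and Pgd fell in shGFP cells at -0.13 (adjusted p = 2.24e-04, limma) and was not called in shKDM1A cells at -0.027. In shKDM1A cells the fall of G6pdx was lost without shKDM1A RAW replicate 3 or 4 or shKDM1A RAW IL4 replicate 1 or 2. That of Tkt was lost without shKDM1A RAW replicate 1, 3 or 4 or shKDM1A RAW IL4 replicate 2 or 4. The count of genes that fell there went from 5 to 3 without shKDM1A RAW replicate 3 or 4 or shKDM1A RAW IL4 replicate 2. Remaining members, Pfkm, Gpi1, Aldoa, Pfkfb4, Pdk1, Pgls and Egln3, were called in neither line. Pfkm was called in shGFP cells without shGFP RAW replicate 2 or shGFP RAW IL4 replicate 1. In shKDM1A cells Pfkm, Aldoa and Pgls were called without shKDM1A RAW IL4 replicate 4 and Pfkfb3 without replicate 1.

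The third question was whether the IL4 response differed between the lines, which was tested as the change in shKDM1A cells minus the change in shGFP cells. The IL4 response of 10 genes was higher in shKDM1A cells and that of 2 was lower, beside 3.56% and 2.57% of all tested genes. The 10 were 4 genes of lower glycolysis, Pgk1, Pgam1, Eno1 and Pkm, with Pfkl, Tpi1, Ldha, Slc16a3, Taldo1 and P4ha1, and the 2 were Hk1 and Hk3. The largest differences were 0.27 (standard error 0.035, adjusted p = 2.93e-04, limma) for Slc16a3, 0.22 (standard error 0.033, adjusted p = 7.31e-04, limma) for Ldha and 0.22 (standard error 0.037, adjusted p = 0.00213, limma) for Taldo1. For Tpi1 the difference was 0.17 (standard error 0.035, adjusted p = 0.0107, limma) and for Pfkl it was 0.17 (standard error 0.036, adjusted p = 0.0136, limma). Smaller differences of 0.14, 0.14, 0.13, 0.12 and 0.12 were found for Eno1, Pgam1, Pkm, P4ha1 and Pgk1 (adjusted p = 0.00838, 0.02, 0.0281, 0.0203 and 0.0223, limma). Hk1 rose less and Hk3 fell more in shKDM1A cells, with differences of -0.22 (standard error 0.035, adjusted p = 0.00142, limma) and -0.25 (standard error 0.048, adjusted p = 0.00527, limma). With a difference over 0.2 in size also required, 3 genes were higher and 2 lower, beside 0.961% and 1.39% of all tested genes. In Slc16a3, Ldha, Eno1, Tpi1 and P4ha1 the change was called in opposite directions, downwards in shGFP and upwards in shKDM1A cells. Slc16a3 alone kept both calls under every alternative run without a fold limit. How many of all tested genes were called in opposite directions was not counted. Among the 1291 genes with the highest level per length, which hold all of these but P4ha1, 30.4% fell in shGFP and 31.4% rose in shKDM1A cells. Bnip3 and Ankrd37, with 0.15 and 0.16, and Hif1a, with 0.036, did not pass the test of the difference, and neither did Slc2a1 at 0.12 (adjusted p = 0.0506, limma).

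Without replicates 1 and 3 of the shKDM1A RAW IL4 group only Ldha, Slc16a3 and Taldo1 of the 10 were still called higher, beside 1.37% of all tested genes, and without replicates 2 and 4 the number was 16, beside 8.52%. The counts of lower genes were then 3 and 2, beside 1.33% and 9.17%. The 7 genes that lost the call kept their direction, with differences of 0.14 for Pfkl, 0.12 for Pgam1, Tpi1, Eno1 and P4ha1, 0.10 for Pkm and 0.084 for Pgk1, from a group of 2 libraries. The calls gained were Pfkp, lower at -0.14, without replicates 1 and 3, and Slc2a1, Aldoa, Pgls, Pgd, Tkt and Ankrd37, higher, without replicates 2 and 4. The highest 2 values of the group were those of replicates 1 and 3 in Ldha, Tpi1, Taldo1, Pkm and Pgk1, for example. Left out singly, the libraries gave 9 to 13 genes higher and 2 lower in every case, and Pkm was the only call of the 12 that a single library could end (shGFP RAW replicate 1 or 4, shGFP RAW IL4 replicate 3 or 4, shKDM1A RAW replicate 2, or shKDM1A RAW IL4 replicate 1 or 3). Calls were gained for Slc2a1 without shGFP RAW IL4 replicate 2 or shKDM1A RAW IL4 replicate 2 or 4, for Aldoa without shGFP RAW replicate 3 or shKDM1A RAW IL4 replicate 4, for Pgd without shKDM1A RAW replicate 1 or shKDM1A RAW IL4 replicate 2 or 4, and for Egln1 without shGFP RAW replicate 3, shKDM1A RAW replicate 1 or shKDM1A RAW IL4 replicate 1. Under quantile normalization 6 genes were higher, beside 3.32% of all tested genes, and the calls of Tpi1, Pgk1, Eno1, Pkm and Ldha were not among them, of which Pkm could not have been. Level moved with this result too, since 14.3% of the 1291 genes with the highest level per length had a higher response in shKDM1A cells and 2.87% a lower one, and 8 of the 10 genes belong to that class. The part of level and of the split between libraries in these differences was not tested.

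A further 66 genes of the same pathways that are not on the list of 32 were counted for comparison, and 52 of them passed the filter on low values. Without IL4, 16 of the 52 (30.8%) were higher and 9 (17.3%) lower in shKDM1A cells, beside 19.7% and 18.4% of all tested genes, and with IL4 17 (32.7%) were higher and 8 (15.4%) lower, beside 20.9% and 19.8%. Most of the higher genes were the hypoxia genes, with 11 of 22 higher and 2 lower in both comparisons. Of the 13 other glycolysis genes, which include isoforms of listed enzymes, 2 were higher and 3 lower in both. With IL4 in shGFP cells 6 of the 52 (11.5%) rose and 12 (23.1%) fell, beside 13.1% and 13.7%, and in shKDM1A cells 7 (13.5%) rose and 9 (17.3%) fell, beside 13.6% and 13.5%. The response differed in 5 genes (9.62%), Slc2a6, Aldoc, Fam162a, Ak4 and Ndrg1, all higher in shKDM1A cells, beside 3.56%. The medians of the 52 genes were 0.023 and 0.021 for the hairpin without and with IL4, smaller than those of the 32. Car12, a carbonic anhydrase, was higher by 0.53 without and 0.60 with IL4 (adjusted p = 3.84e-08 and 7.30e-09, limma), and Aldoc, an aldolase, by 0.38 and 0.59. Adpgk, an ADP-dependent glucokinase, was higher by 0.41 without IL4, and Ak4, an adenylate kinase, by 0.47 with IL4. Plod2, a lysyl hydroxylase, was lower at -0.38 and -0.41, and Eno3, the muscle enolase, at -0.31 and -0.37, so that the enolases Eno1 and Eno3 differed between the lines in opposite directions. With IL4, Bhlhe40, a transcription factor, rose by 0.55 in shGFP and 0.57 in shKDM1A cells, and Aldoc fell by 0.47 and 0.27. Ndrg1, a hypoxia-induced gene, fell by 0.48 and 0.18, and its response differed between the lines by 0.30 (adjusted p = 0.000774, limma).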

How the data were processed

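RNA-seq libraries of shGFP and shKDM1A RAW cells without and with IL4 were grouped by their labels (16 libraries, 4 per group). Per the file header and the paper's methods, the authors aligned reads to mm9 with HISAT2 and Bowtie2 and counted them on the exons of RefSeq genes on both strands with HOMER, with 1 row per gene. They deposited values per library on a log2 scale, from the HOMER step that runs DESeq2, whose transformation is not named. Tool versions are not given in the sources used here. Commas stand for decimal points in the table and were converted. The remaining columns of this table, and all measurement columns of the table of bone marrow-derived macrophages, hold the authors' own comparisons (log2 fold change, p-value and its adjusted value) and were not used. From the latter only gene symbols were read.

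The log2 values were analysed as deposited in R 4.3.3 with limma 3.58.1 (lmFit, contrasts.fit, eBayes) in 1 model of 4 group means, for the 12905 genes that reached a value of 1 in 4 or more libraries. Tests were two-sided, and p-values were adjusted by Benjamini-Hochberg over all genes tested in each of 5 comparisons. A gene is called at an adjusted p under 0.05. The step was tested on simulated data. Values per kilobase subtract the log2 of the transcript length. Promoter windows were read from the NCBIM37 (mm9) genome, and 22 genes without a full window were left out.

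The 32 genes and the other lists were chosen with earlier results of these data known. Values per library are given for the 8 called genes with the largest change in each comparison, for every gene called in the difference in IL4 response, and for Hif1a, Slc2a1, Hk2, Pfkfb3, Pfkl, Gapdh, Ldha, Pkm and G6pdx. Of the other pathway genes, the 3 largest called changes in each direction may be named. Alternatives were no filter, a filter at 5, quantile normalization, median centring, a prior variance that follows the mean (trended), only the groups compared, the replicate number as a block, a fold limit, leaving out each library, and, chosen after seeing the data, leaving out a pair of shKDM1A RAW IL4 replicates. No pair of libraries held identical values.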

Additional observations from a re-analysis of the deposited data

Results flagged for a closer look

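The IL4 response differed between the lines in 12 genes, by the limma test of the difference itself (shKDM1A minus shGFP). The differences on the log2 scale were 0.2702 for Slc16a3, 0.2242 for Ldha, 0.2201 for Taldo1, 0.1675 for Tpi1, 0.1651 for Pfkl, 0.1354 for Eno1, 0.1353 for Pgam1, 0.1263 for Pkm, 0.125 for P4ha1 and 0.1164 for Pgk1. They were -0.2168 for Hk1 and -0.2524 for Hk3. Those whose call was lost without replicates 1 and 3 of the shKDM1A RAW IL4 group, or under another scaling, are named in the report.

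A single library stood apart from the other 3 of its group, by its gap to the nearest relative to the range of the group, in 5 of 128 gene and group pairs. Chance alone gives about 1 in 20. In shKDM1A RAW replicate 1, Hk3 was low at 10.6639 and Slc16a3 was high at 12.7339. In shGFP RAW replicate 4, Tpi1 was high at 14.0629 and Pgd was high at 14.0661. In shKDM1A RAW IL4 replicate 4, Pfkm was high at 8.8302. Left out, none of these libraries ended a call of its gene, and without the last one the change of Pfkm with IL4 in shKDM1A cells, -0.13, had an adjusted p of 0.0335 (limma).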

How the results depend on the processing

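Of 2811 values of single genes under alternative settings, 2624 kept direction and call, 130 lost the call, 55 gained it and 2 reversed. The 2 were Eno1 (0.0263) and Ldha (0.0375) in shGFP cells with IL4 under quantile normalization. In each line below, counts of the 32 genes come first and those of the 52 other pathway genes after them.

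With a log2 change over 0.2 also required, the counts for IL4 in shGFP cells were 2 higher and 2 lower, with 4 and 4 of the other genes. For IL4 in shKDM1A cells they were 3 and 1, with 3 and 2 of the other genes. For the hairpin without IL4 they were 11 and 0, with 10 and 4 of the other genes, and with IL4 15 and 0, with 10 and 4. For the difference in response 3 genes were higher. The shares of all tested genes under this limit are given above. For IL4 in shKDM1A cells, 3 genes fell with the filter at 5 and with median centring, beside 16.3% and 12.1% of all tested genes. For the hairpin without IL4, 0 were lower with the filter at 5, which leaves Egln3 untested, and 2 with quantile normalization or the trended prior variance. The shares of all tested genes were 21.2%, 22.7% and 18.8%. For the hairpin with IL4, 0 were lower without a filter, with median centring and without shKDM1A RAW IL4 replicates 1 and 3, and 2 with the trended prior variance. The shares of all tested genes were 8.34%, 17.6%, 14.4% and 20.6%. For the difference in response, 6 were higher with quantile normalization, 3 without shKDM1A RAW IL4 replicates 1 and 3 and 16 without replicates 2 and 4. The other genes gave 2 higher without a filter, 3 without replicates 1 and 3, and 9 higher and 1 lower without replicates 2 and 4. Apart from the limits that a setting's own construction sets, the cause was not tested.

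Leaving out each library in turn gave, for IL4 in shGFP cells, 4 to 5 genes higher and 11 to 13 lower, with 5 to 6 and 11 to 13 of the other genes. For IL4 in shKDM1A cells it gave 10 to 13 and 3 to 5, with 7 to 8 and 7 to 10. For the hairpin without IL4 it gave 22 to 23 and 1 to 2, with 16 to 17 and 8 to 9, and 2 were lower without shGFP RAW replicate 4. For the hairpin with IL4 it gave 24 to 26 and 0 to 1, with 16 to 18 and 8 to 9. For the difference in response it gave 9 to 13 and 2, with 3 to 7 and 0 to 1, where 3 came from leaving out shGFP RAW replicate 1 or 4, shGFP RAW IL4 replicate 2 or shKDM1A RAW replicate 2, and 1 from leaving out shKDM1A RAW replicate 1 or 2. Over these settings, 11.2% to 12.2% of all tested genes were higher and 11.8% to 12.7% lower for IL4 in shGFP cells. For IL4 in shKDM1A cells the shares were 11.6% to 13.6% and 11.8% to 13.9%. For the hairpin they were 18.1% to 18.8% and 16.1% to 17% without IL4, and 19% to 20.6% and 17.4% to 19.8% with IL4. For the difference in response they were 2.32% to 4.73% and 1.77% to 3.82%. The difference of Kdm1a ran from -0.9039 to -0.8614 without and from -0.7988 to -0.772 with IL4.

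Replicate numbers are shared by the groups, and correlations of same-numbered libraries, as deviations from the group mean, ran from -0.343 to 0.273. For replicate 1 the best match in the other group was replicate 1 in every pair of groups, at 0.043 to 0.273. For the other numbers this held in some pairs only. The labels do not say whether libraries with the same number were prepared together, so pairing by number remains undecided. With the replicate number as a block, the difference in response had 10 genes higher and 2 lower, the hairpin with IL4 26 and 1, the hairpin without IL4 23 and 1, IL4 in shKDM1A cells 10 and 5 and IL4 in shGFP cells 5 and 13, and no count moved by over 1.5 times. In the same order, the shares of all tested genes were 3.08% and 2.6%, 20.6% and 19.8%, 19.6% and 18.2%, 13.4% and 13.4%, and 13.1% and 13.5%.

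Limits are the use of 1 hairpin and 1 line per target, changes that are mostly under 0.2 on the log2 scale, and a transformation that is not named, with a narrow spread in weakly expressed genes such as Egln3. Library totals were 17554721 to 24525790 in the shKDM1A RAW IL4 group and 18935438.5 to 27782568 in the others.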
